A study of Mus musculus with 4 samples.

Results

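The genes described here are 10 imprinted genes of growth control, Phlda2, H19, Cdkn1c, Peg3, Meg3, Dlk1, Plagl1, Rian, Mest and Grb10, measured in single cells of mouse embryoid bodies. They were matched by symbol among the 32285 genes listed in every library, and all 10 were found. All 10 also lay among the 6575 genes that averaged 20 CPM or more over the libraries, where CPM is a gene's UMIs (tagged RNA molecules) scaled to the library's total. Embryoid bodies are aggregates in which embryonic stem cells differentiate, and these came from R1, a mouse embryonic stem cell line. There were 4 droplet libraries of 3′ ends, 1 per group: 7.33 days of normoxia followed by 16 h of hypoxia (day 8), 8 days of normoxia, 8 days of normoxia followed by 48 h of hypoxia (day 10), and 10 days of normoxia. With 1 library per group there was no replicate check and no test, so a difference between conditions and a difference between libraries cannot be told apart. The comparisons address how low oxygen and time in culture go with the levels of these genes.

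An imprinted gene is transcribed mainly from the copy of 1 parent, a choice laid down by DNA methylation in the germ line and read again in the embryo. Maternally expressed members such as Cdkn1c, Phlda2, Grb10 and H19 are known to restrain fetal or placental growth, and paternally expressed members such as Dlk1, Mest, Peg3 and Plagl1 are mostly known for promoting it. Meg3 and Rian are maternally expressed non-coding RNAs of the domain that also holds Dlk1. UMI counts do not tell the parental copies apart, so each value is the sum over both.

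The kept cells numbered 2670 to 4615 per library, with medians of 12800 to 23034 UMIs per cell, lowest in 48 h hypoxia. Ribosomal protein genes took 29.4% of UMIs in 48 h hypoxia, against 20.7% in normoxia at day 10, and 19.7% in 16 h hypoxia, against 18.4% in normoxia at day 8. The median mitochondrial share per cell was 0.562% in 48 h hypoxia and 3.92% in normoxia at day 10, and the median number of genes was 3149 and 4882. Malat1, a nuclear non-coding RNA, had 27236 CPM in 48 h hypoxia and 16092 CPM in normoxia at day 10. The part of these differences in the day 10 ratios was not tested. Libraries shared 1 to 5 barcodes with each other. The labels call the cells embryonic stem cells, but the pluripotency gene Pou5f1 had 2.90 CPM in 16 h hypoxia and 5.23 CPM in normoxia at day 8, and 2.33 CPM in 48 h hypoxia and 2.25 CPM in normoxia at day 10. Nanog, another such gene, lay between 0.169 and 1.33 CPM. The 8 pluripotency markers listed summed to 23.9 CPM in 16 h hypoxia and 32.0 CPM in normoxia at day 8. At day 10 they summed to 60.7 CPM in 48 h hypoxia and 24.1 CPM in normoxia. Klf4, which is among them, had 56.4 CPM and 18.1 CPM in those day 10 libraries. At resolution 2 of the clustering described below, a cluster of 40 cells was led by Dppa5a, Pou5f1 and Utf1. In values summed over a library, fewer cells of a type and less RNA per cell cannot be told apart.

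In the mm10 build (GENCODE M21) Phlda2 spans chr7:143501545-143503150, Cdkn1c chr7:143458339-143461050 and H19 chr7:142575529-142578143, all on the minus strand of the same imprinted cluster of chromosome 7. Peg3 lies far from them at chr7:6703892-6730431 (minus). Grb10 spans chr11:11930508-12038683 (minus), Mest chr6:30723547-30748465 (plus) and Plagl1 chr10:13060504-13131694 (plus). Dlk1 (chr12:109452823-109463336), Meg3 and Rian (chr12:109603940-109661716) follow each other on the plus strand of chromosome 12. UMIs were counted per gene, so isoforms and exons are not told apart.

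Promoter windows (250 bases before to 50 after a start, RefSeq, GRCm38.p6) were given for 8 of the 10 genes, in 12 entries. Shown are those of Phlda2, which went opposite ways in the hypoxia comparisons, of Peg3, the member with the largest difference at day 10, and of Plagl1 and Dlk1, the members whose windows held the core bound by hypoxia-inducible factors. Capitals mark ACGTG on either strand, that core, and GGGGCCCC, a core bound by the PLAGL1 protein. The windows, each written 5′ to 3′ along the gene's strand, are chr7:143502475-143502774 (minus strand), chr7:6730370-6730669 (minus), chr10:13090582-13090881 (plus) and chr12:109452573-109452872 (plus).
Phlda2: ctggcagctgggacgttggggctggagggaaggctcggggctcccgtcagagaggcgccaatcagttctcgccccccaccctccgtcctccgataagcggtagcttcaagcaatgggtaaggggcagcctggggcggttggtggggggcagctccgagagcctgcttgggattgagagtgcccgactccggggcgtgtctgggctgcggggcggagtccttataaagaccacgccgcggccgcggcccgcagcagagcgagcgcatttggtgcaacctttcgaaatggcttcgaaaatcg
Peg3: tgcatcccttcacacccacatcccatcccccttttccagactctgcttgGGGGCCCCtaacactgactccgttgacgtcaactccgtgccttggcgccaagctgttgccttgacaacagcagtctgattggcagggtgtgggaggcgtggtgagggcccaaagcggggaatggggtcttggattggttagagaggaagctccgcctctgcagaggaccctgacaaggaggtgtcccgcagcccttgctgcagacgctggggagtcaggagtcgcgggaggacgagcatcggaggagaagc
Plagl1: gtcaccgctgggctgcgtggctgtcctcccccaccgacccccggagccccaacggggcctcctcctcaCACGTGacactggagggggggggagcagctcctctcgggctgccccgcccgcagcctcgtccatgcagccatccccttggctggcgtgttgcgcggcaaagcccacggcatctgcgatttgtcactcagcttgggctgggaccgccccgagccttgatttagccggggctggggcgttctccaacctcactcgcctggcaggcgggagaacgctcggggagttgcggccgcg
Dlk1: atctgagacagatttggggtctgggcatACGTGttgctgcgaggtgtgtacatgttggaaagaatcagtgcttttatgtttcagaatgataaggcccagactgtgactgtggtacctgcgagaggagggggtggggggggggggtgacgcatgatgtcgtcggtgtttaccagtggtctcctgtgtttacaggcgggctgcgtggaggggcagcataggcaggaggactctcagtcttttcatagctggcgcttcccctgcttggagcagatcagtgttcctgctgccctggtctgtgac

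ACGTG stood in 19.6% of all 32851 promoter windows, counting both strands. Plagl1 held 2 matches, which are the same palindromic CACGTG read on either strand, Dlk1 held 1, and the windows of the other 6 matched genes held 0. GGGGCCCC stood in 1.08% of all windows, and among the members the window of Peg3 held 1 match. GCCATNTT, a core bound by the factor YY1, stood in 6.05% of all windows and in 0 of the 12 windows of the members. The windows of Phlda2 and of Plagl1 held 26 CpG dinucleotides each and that of Peg3 held 13, beside a median of 7 over all windows.

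Some members are also precursors of microRNAs, which 3′ UMIs of the host do not measure. RefSeq places 2 mature forms within H19, 3 within Meg3, 6 within Rian and 2 within Mest, and no seed (bases 2 to 8, in capitals) occurs more than once among these 13. The forms shown belong to H19, which was higher in 48 h hypoxia than in normoxia, and to Mest and Rian, which were lower.
mmu-miR-675-5p (H19): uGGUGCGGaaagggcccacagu
mmu-miR-335-5p (Mest): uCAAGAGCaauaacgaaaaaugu
mmu-miR-370-3p (Rian): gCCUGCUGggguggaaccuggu

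Phlda2 encodes a small lipid-binding protein that restrains growth of the placenta. It had 13.5 CPM in 16 h hypoxia and 33.8 CPM in normoxia at day 8, and 34.9 CPM in 48 h hypoxia and 7.70 CPM in normoxia at day 10. Its highest levels were thus in the 48 h hypoxia and day 8 normoxia libraries, whose exact Poisson intervals overlap (33.6 to 36.2 CPM and 32.6 to 35.0 CPM). The log2 ratio of CPM + 1, hypoxia over normoxia, was -1.26 at day 8 (95% interval of the plain ratio -1.42 to -1.22) and 2.05 at day 10 (2.04 to 2.32). Between the normoxia libraries the level was 4.39-fold lower at day 10 than at day 8. These intervals, like all those below, cover counting error only, and for low genes the log2 ratio of CPM + 1 can lie near or outside the interval of the plain ratio. Under the 10 other settings tried, the ratio stayed between -1.38 and -0.90 at day 8 and between 1.34 and 2.63 at day 10.

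The share of cells with at least 1 UMI of Phlda2 was 10.4% in 16 h hypoxia and 19.6% in normoxia at day 8, and 21.9% in 48 h hypoxia and 7.60% in normoxia at day 10. Cells were also thinned to 5000 UMIs each, with cells of fewer UMIs left out. The shares were then 3.68% and 8.92% at day 8 and 12.6% and 2.27% at day 10, in the same order. In macrophage-like cells, taken here as the class that should lack the gene, 0 of 38 cells in 16 h hypoxia and 0 of 51 in normoxia at day 8 had a UMI. Taking 3 cells as the most that a count of 0 allows, the share of cells with a UMI could be up to 7.89% and 5.88%. At day 10 the macrophage-like cells gave 5 of 120 (4.17%) in 48 h hypoxia and 0 of 183 in normoxia, which by the same limit allows up to 1.64%. Their median depth was 12290 UMIs in 48 h hypoxia and 19532 in normoxia, beside 12800 and 20306 over all kept cells.

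Cdkn1c encodes p57, an inhibitor of cyclin-dependent kinases that lets cells leave the cycle. It had 419 CPM in 16 h hypoxia and 516 CPM in normoxia at day 8, and 251 CPM in 48 h hypoxia and 426 CPM in normoxia at day 10. The hypoxia library was the lower at both days, and the lowest of all was the 48 h library. Its log2 ratio was -0.30 at day 8 (-0.32 to -0.28) and -0.76 at day 10 (-0.79 to -0.73). At day 8 the ratio lay between -0.60 and -0.08 under the 10 other settings, and 2 of them put it past 1.5-fold. At day 10 the size depended on scaling: it was -0.26 with trimmed-mean scaling (TMM) and -0.43 after centring on the all-gene median. Cycling markers were also lower at day 10, where 11 of 11 were at least 1.5-fold lower, beside 37.7% of all genes. Their summed level was 296 CPM in 48 h hypoxia and 1033 CPM in normoxia. At day 8, 6 of 11 were at least 1.5-fold lower, beside 6.36% of all genes. The 11 summed to 813 CPM in 16 h hypoxia and 1265 CPM in normoxia at day 8. The part of these markers in the ratios of Cdkn1c was not tested.

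Grb10 encodes an adaptor that dampens insulin and insulin-like growth factor signalling. It had 672 CPM in 16 h hypoxia and 524 CPM in normoxia at day 8, and 462 CPM in 48 h hypoxia and 637 CPM in normoxia at day 10. The 16 h library was thus the highest and the 48 h library the lowest. Its log2 ratio was 0.36 at day 8 and -0.46 at day 10, and the day 10 ratio was 0.04 under TMM, so its direction depends on the scaling.

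H19 is a maternally expressed non-coding RNA that shares its control region with Igf2, the gene of a fetal growth factor. It had 365 CPM in 16 h hypoxia and 352 CPM in normoxia at day 8, and 448 CPM in 48 h hypoxia and 283 CPM in normoxia at day 10. The 48 h library held the highest level and the day 10 normoxia library the lowest. The log2 ratio was 0.05 at day 8, where it was -0.06 as a mean over cells and -0.08 in thinned cells, and 0.66 at day 10 (0.63 to 0.69). At day 10 the mean over cells gave 0.33 and thinned cells gave 0.37, below the 1.5-fold threshold (0.585 on the log2 scale).

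**Figure D1:**
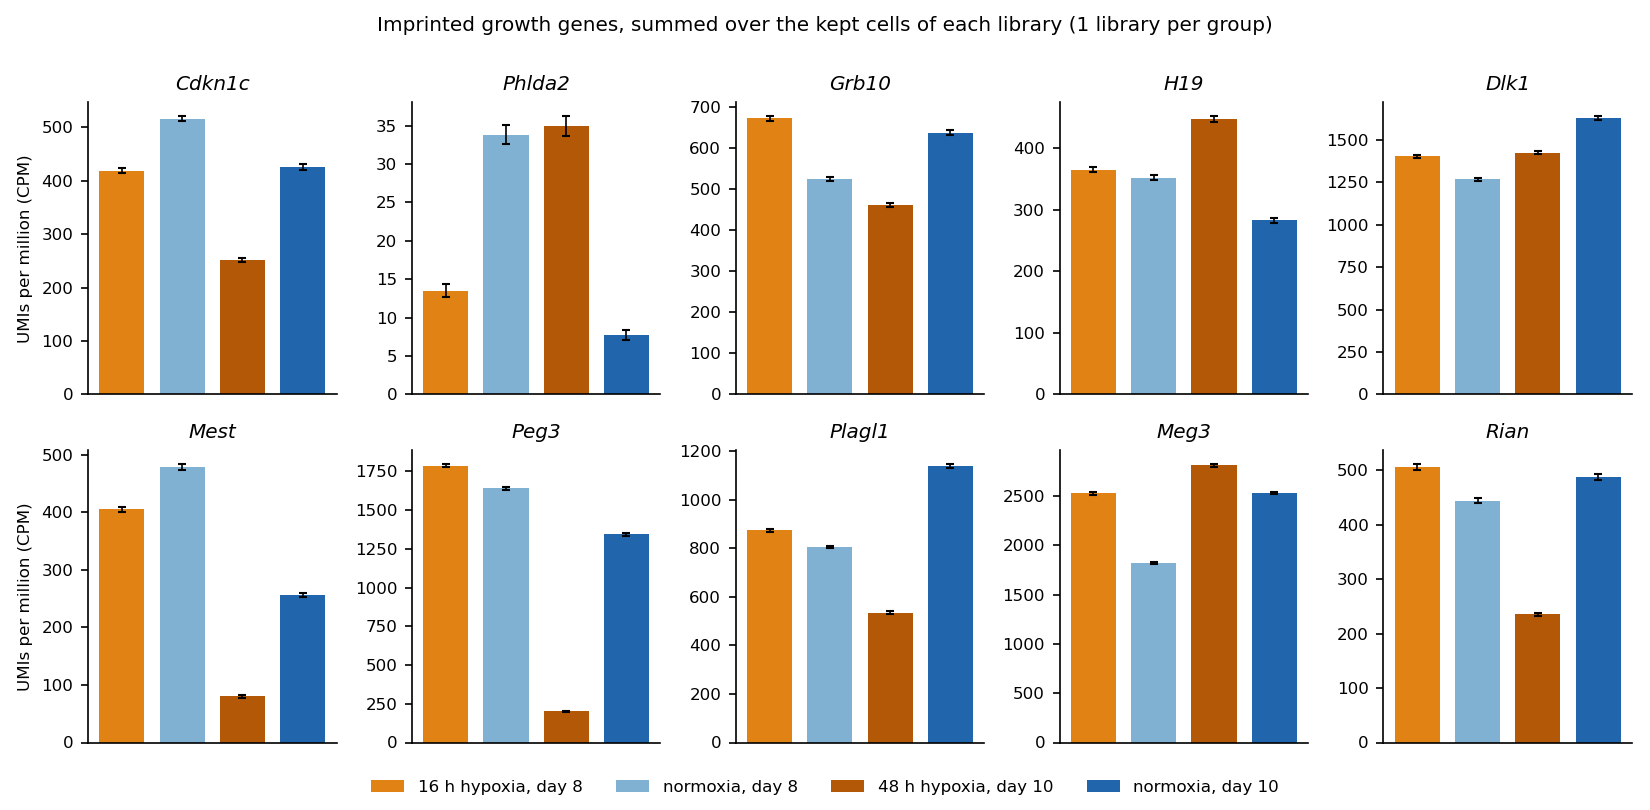
CPM of each member (y axis from 0, own scale per panel) in the 4 libraries, hypoxia left of normoxia at each day. Bars are sums over the kept cells and whiskers are exact Poisson intervals of counting error. Peg3 stands at 202 CPM in 48 h hypoxia and at 1344 to 1786 CPM in the other libraries.

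Among the paternally expressed members, Peg3 differed most. It encodes a zinc finger protein with known roles in growth and maternal care. Peg3 had 1786 CPM in 16 h hypoxia and 1639 CPM in normoxia at day 8, and 202 CPM in 48 h hypoxia and 1344 CPM in normoxia at day 10. The 48 h hypoxia library stood apart from the other 3. The log2 ratio was 0.12 at day 8 and -2.73 at day 10 (-2.76 to -2.71), a 6.65-fold lower level, and stayed between -2.94 and -2.23 at day 10 under the other settings. The share of cells with a UMI was 63.7% in 48 h hypoxia and 90.2% in normoxia at day 10. In thinned cells it was 44.3% and 88.6%, beside 7.84% and 4.40% in thinned macrophage-like cells.

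The Peg3 span lies head to head with that of Usp29, a paternally expressed gene of the same domain, with 146 bases between them, and the Peg3 window printed above covers the start of Usp29. Usp29 had 132 CPM in 48 h hypoxia and 142 CPM in normoxia at day 10, a log2 ratio of -0.10 whose direction turns under TMM. Within a library, where scaling cancels, there were 153 Peg3 UMIs per 100 of Usp29 in 48 h hypoxia (149 to 157) and 948 in normoxia at day 10 (927 to 969). At day 8 the ratios were 1164 in 16 h hypoxia and 1033 in normoxia. The neighbours thus differed unequally at day 10. Zim1, a maternally expressed zinc finger gene beside Peg3, gave 25.9 UMIs per 100 of Peg3 in 48 h hypoxia and 6.46 in normoxia at day 10.

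Mest encodes an enzyme of the alpha/beta hydrolase family. It had 405 CPM in 16 h hypoxia and 478 CPM in normoxia at day 8, and 79.9 CPM in 48 h hypoxia and 256 CPM in normoxia at day 10. Its log2 ratio was -0.24 at day 8 and -1.67 at day 10 (-1.72 to -1.64), and -0.90 for day 10 over day 8 in normoxia. The level was thus lower at day 10 than at day 8 within normoxia, and the 48 h hypoxia library was the lowest of the 4. The share of cells with a UMI was 33.8% in 48 h hypoxia and 66.9% in normoxia at day 10, and 19.6% and 47.6% in thinned cells, beside 0.980% and 2.52% in thinned macrophage-like cells. Mest shares 912 bases with Copg2 on the opposite strand, and Copg2 had 24.9 CPM in 48 h hypoxia and 60.8 CPM in normoxia at day 10.

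Plagl1 encodes a zinc finger transcription factor that binds other imprinted genes. It had 873 CPM in 16 h hypoxia and 805 CPM in normoxia at day 8, and 535 CPM in 48 h hypoxia and 1138 CPM in normoxia at day 10. Its log2 ratio was 0.12 at day 8 and -1.09 at day 10 (-1.10 to -1.07), with -0.59 under TMM, just past the 1.5-fold threshold, as the smallest size at day 10. In normoxia the level at day 10 was higher than at day 8, by 0.50 on the log2 scale.

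Dlk1 encodes a membrane protein related to Notch ligands that holds back differentiation of mesenchymal cells. It had 1402 CPM in 16 h hypoxia and 1267 CPM in normoxia at day 8, and 1423 CPM in 48 h hypoxia and 1630 CPM in normoxia at day 10. Its 4 levels lay within a narrow range compared with those of Peg3. The log2 ratio was 0.15 at day 8 and -0.20 at day 10, and the day 10 ratio became 0.31 under TMM and 0.14 after centring.

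**Figure D2:**
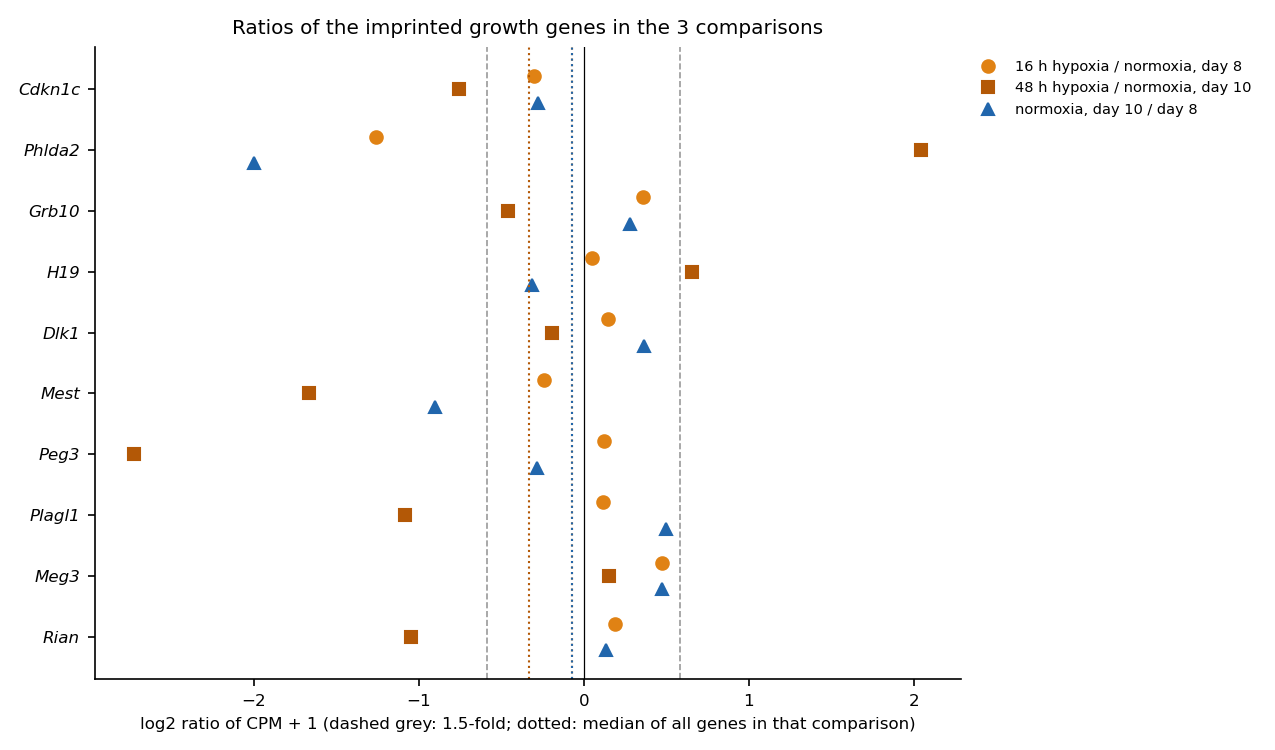
Log2 ratio of CPM + 1 of each member (x axis) in the comparisons of hypoxia with normoxia at day 8 and at day 10 and of day 10 with day 8 in normoxia. Dashed lines mark 1.5-fold and dotted lines the median of all genes. Phlda2 lies at -1.26 at day 8 and at 2.05 at day 10, and Peg3 at -2.73 at day 10.

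Meg3 and Rian lie on chromosome 12 downstream of Dlk1. Meg3, a long non-coding RNA, had 2527 CPM in 16 h hypoxia and 1821 CPM in normoxia at day 8, and 2811 CPM in 48 h hypoxia and 2534 CPM in normoxia at day 10. The day 8 normoxia library was the low one, and the intervals of 16 h hypoxia and day 10 normoxia overlap (2516 to 2538 CPM and 2521 to 2546 CPM). Rian, a host of small nucleolar RNAs, had 506 CPM in 16 h hypoxia and 444 CPM in normoxia at day 8, and 235 CPM in 48 h hypoxia and 487 CPM in normoxia at day 10. Here the 48 h hypoxia library was the low one. The log2 ratios of Meg3 were 0.47 at day 8 and 0.15 at day 10, and those of Rian were 0.19 at day 8 and -1.05 at day 10 (-1.08 to -1.02). Under TMM the day 10 ratio of Rian was -0.55.

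These RNAs are annotated on the same strand within a stretch of the mouse genome from chr12:109541001-109571726 (Meg3) to chr12:109729764-109749460 (Mirg, a host of microRNAs), in the mm10 build. By distance from the start of Meg3, the log2 ratio at day 10 was 0.15 for Meg3, -1.05 for Rian at 62.9 kb, -1.90 for B830012L14Rik, a non-coding RNA, at 154.6 kb and -1.76 for Mirg at 188.8 kb. At day 8 the same genes gave 0.47, 0.19, -0.01 and -0.03. Both comparisons thus had Meg3 as the highest of the 4 ratios. Within a library there were 8.37 Rian UMIs per 100 of Meg3 in 48 h hypoxia and 19.2 in normoxia at day 10, and 19.8 to 20.2 in 16 h hypoxia and 24.1 to 24.7 in normoxia at day 8. For Mirg the values were 0.804 and 3.11 at day 10 and 3.28 and 4.64 at day 8, hypoxia before normoxia. The sources used here do not give whether intronic reads entered the counts, and its part in these ratios was not tested.

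**Figure D3:**
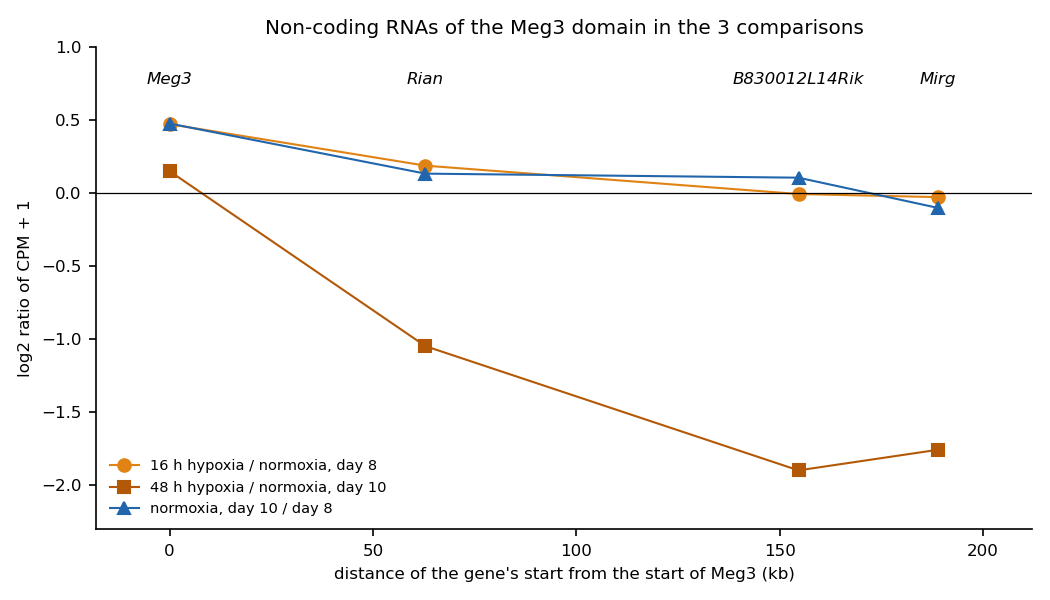
Log2 ratio of CPM + 1 (y axis) of 4 non-coding RNAs against the distance of their starts from the start of Meg3 in kb (x axis), with 1 line per comparison. In 48 h hypoxia over normoxia the ratios run from 0.15 at Meg3 to -1.90 at B830012L14Rik.

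At day 8, 0 members were at least 1.5-fold higher in hypoxia and 1, Phlda2, was at least 1.5-fold lower, where 4.67% of all 6575 genes were higher and 6.36% were lower. At day 10, 2 members were higher, Phlda2 and H19, beside 12.2% of all genes, and 5 were lower, Peg3, Mest, Plagl1, Rian and Cdkn1c, beside 37.7% of all genes. Lower levels at day 10 were thus common among all genes, and the members' 5 of 10 was not tested against them. Between day 10 and day 8 in normoxia, 0 members were higher and 2 lower, Phlda2 and Mest, beside 6.54% and 6.49% of all genes. This comparison shares a normoxia library with each hypoxia comparison, so the 3 are not independent. The members' median log2 ratio was 0.12 at day 8, -0.61 at day 10 and -0.07 between days, beside -0.07, -0.33 and -0.07 over all genes.

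TMM moved the median of all genes to 0.15 at day 8, to 0.16 at day 10 and to 0.05 between days. With it, 1 member was higher and 1 lower at day 8, 3 higher and 3 lower at day 10, and 2 higher and 2 lower between days. The members that became higher were Meg3 in all 3 comparisons and Plagl1 between days. At day 10 it also turned the balance of all genes, with 31.2% higher and 18.8% lower. At day 8 it gave 10.6% higher and 2.05% lower, and between days 9.44% higher and 3.89% lower. Peg3, Mest and Plagl1 remained at least 1.5-fold lower and Phlda2 at least 1.5-fold higher at day 10 under each of the 10 other settings.

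Among 26 other imprinted genes that averaged 20 CPM or more, 1 was at least 1.5-fold higher and 1 lower at day 8, 1 higher and 14 lower at day 10, and 0 higher and 3 lower between days. The shares of all genes were 4.67% higher and 6.36% lower at day 8, 12.2% and 37.7% at day 10, and 6.54% and 6.49% between days. The median of the 26 was -0.03 at day 8, -0.72 at day 10 and -0.15 between days. Under TMM 4 of the 26 were higher at day 10 and 10 lower, beside 31.2% and 18.8% of all genes. By parental list, 6 of 13 paternally and 8 of 13 maternally expressed genes were lower at day 10, beside 37.7% of all genes. The counts were 5 of each under TMM, beside 18.8%, and 6 against 5 with centring on the median, beside 24.3%. The lists were thus not set apart. The lists follow the allele generally expressed in mouse, and whether each gene is imprinted in these cells was not measured. Among the other imprinted genes averaging 5 CPM or more, the largest sizes at day 10 were -2.67 for Ppp1r9a, which encodes a neuronal actin-binding protein, -2.66 for Asb4, -2.52 for Rtl1, a retrotransposon-derived gene of the Dlk1 domain, and -2.40 for Kcnq1ot1, the paternally expressed non-coding RNA of the domain of Cdkn1c and Phlda2. Igf2 had 1406 CPM in 48 h hypoxia and 1444 CPM in normoxia at day 10, a log2 ratio of -0.04 whose direction turns under TMM.

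Ratios between neighbours of a domain also differed between libraries, free of scaling. Phlda2 gave 13.9 UMIs per 100 of its neighbour Cdkn1c in 48 h hypoxia and 1.81 in normoxia at day 10, and 3.23 in 16 h hypoxia and 6.54 in normoxia at day 8. Kcnq1ot1 gave 11.4 UMIs per 100 of Cdkn1c in 48 h hypoxia and 36.6 in normoxia at day 10. H19 gave 31.8 per 100 of Igf2 in 48 h hypoxia and 19.6 in normoxia at day 10, and 26.7 in 16 h hypoxia and 28.5 in normoxia at day 8.

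Cells were clustered without the members and without other imprinted genes, and 6 clusters were named from marker lists as endoderm-like, cardiomyocyte-like, endothelial-like, megakaryocyte-like, erythroid-like and macrophage-like. The remaining cells, 86.2% of the library in 16 h hypoxia and 84.6% in normoxia at day 8, and 93.5% in 48 h hypoxia and 89.4% in normoxia at day 10, carried 8 of 9 fibroblast markers at least 2-fold above the named classes, Col1a1 by 3.55 on the log2 scale. Their largest clusters differed between libraries (18, 19 and 16 in 48 h hypoxia, and 11, 14 and 15 in normoxia at day 10), and a cluster held mostly by 1 library may be that library and not a type. The summed level of the 9 fibroblast markers was 3755 CPM in 48 h hypoxia and 9004 CPM in normoxia at day 10, with 8 of 9 at least 1.5-fold lower. The 8 smooth muscle markers summed to 7613 CPM and 1794 CPM in the same libraries, and of the 7 averaging 5 CPM or more, 6 were at least 1.5-fold higher and 1, Mylk, was lower. For the same lists at day 8, the fibroblast markers summed to 6879 CPM in 16 h hypoxia and 6921 CPM in normoxia, and the smooth muscle markers to 5912 CPM and 4187 CPM. None of these markers was at 0 in any library. The part of these shifts in the members' ratios was not tested.

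The remaining cells made up 93.5% of the 48 h hypoxia library and 89.4% of normoxia at day 10. Their day 10 ratios were thus largely bound to lie near those of whole libraries. They were -2.82 for Peg3, -1.76 for Mest, -1.16 for Plagl1, -1.11 for Rian, -0.86 for Cdkn1c and 0.60 for H19. Phlda2 had 34.6 CPM in 48 h hypoxia and 7.92 CPM in normoxia there. Their 6 clusters of at least 50 cells in 48 h hypoxia lay between 121 and 408 CPM of Peg3, and the 5 in normoxia at day 10 between 572 and 1819 CPM. Peg3 was the 1 member whose clusters were all lower in 48 h hypoxia, beside 13.1% of all genes, and 0 members were all higher, beside 2.84%. At day 8, 0 members were lower in every cluster, beside 7.22% of all genes, and 0 were higher, beside 3.79%. Leaving out a cluster of low depth, added after seeing the data, gave 3 members lower in every cluster at day 10, Peg3, Plagl1 and Grb10, beside 25.8% of all genes. The members' counts stand near those shares.

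Phlda2 was uneven among clusters. In 48 h hypoxia it had 94.1 CPM in cluster 19 and 52.0 CPM in cluster 16, with 3.52 to 11.7 CPM in the other 4. In normoxia at day 8, cluster 5 held 181 CPM, against 15.6 to 38.1 CPM in the other 4 clusters, and in 16 h hypoxia the same cluster held 54.3 CPM, against 3.42 to 18.9 CPM in the other 5. In normoxia at day 10, clusters 6 and 15 had 26.1 and 23.9 CPM, against 1.77 to 4.91 CPM in the others. Cluster 6 held 78 cells there with a median of 2815 UMIs, so its value rests on few UMIs of Phlda2. Clusters 5 and 16 both have Tbx4, a limb and allantois transcription factor gene, among their 10 leading genes. Cluster 19, the highest in 48 h hypoxia, does not. H19 was highest in clusters 6 (1145 CPM) and 17 (1099 CPM) of 48 h hypoxia, where cluster 6 is the one of low depth, and lay between 141 and 539 CPM in the other 4. In normoxia at day 10 the 5 clusters lay between 267 and 316 CPM of H19. Cdkn1c went both ways at day 8, lower in 16 h hypoxia in clusters 1, 2, 4 and 5 and higher in cluster 8. Cluster 1 had 279 CPM in 16 h hypoxia and 553 CPM in normoxia, and cluster 8 had 969 and 876 CPM.

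**Figure D4:**
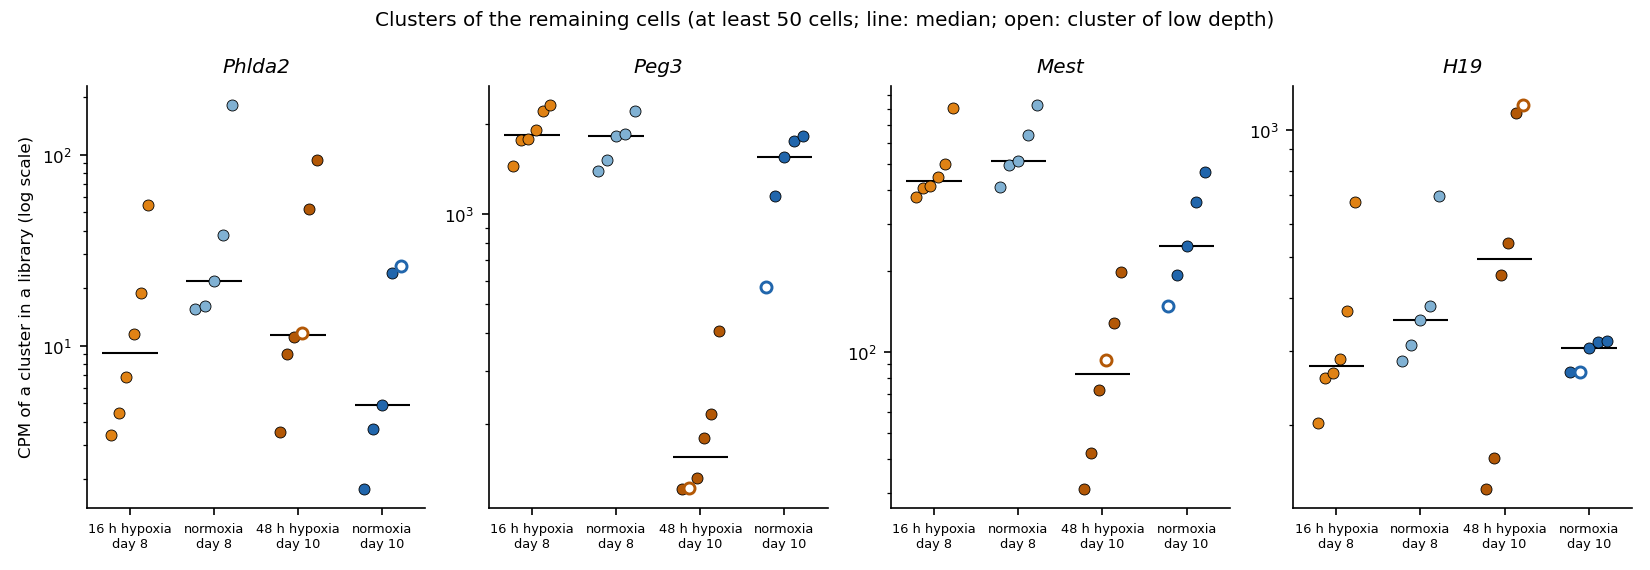
CPM (log axis) of Phlda2, Peg3, Mest and H19 in the clusters of the remaining cells in each library, hypoxia left of normoxia at each day. Each point is 1 cluster with at least 50 cells, open points are the cluster of low depth and lines are medians. All 6 Peg3 points of 48 h hypoxia lie below the 5 of normoxia at day 10.

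By class, Cdkn1c was highest in cardiomyocyte-like cells among classes of at least 20 cells in each of these 3 libraries, with 1159 CPM in 16 h hypoxia (25 cells) and 2521 CPM in normoxia at day 8 (33 cells), and 543 CPM in 48 h hypoxia (43 cells). Dlk1 and Plagl1 were low in endoderm-like cells, at 175 and 66.8 CPM in 16 h hypoxia and 208 and 59.9 CPM in normoxia at day 8, where the remaining cells had 1572 and 985 CPM in 16 h hypoxia and 1453 and 931 CPM in normoxia. Peg3 in endoderm-like cells was 332 CPM in 48 h hypoxia and 1214 CPM in normoxia at day 10, a log2 ratio of -1.87 (-2.06 to -1.68). Phlda2 in the same cells was 64.3 CPM and 22.9 CPM, a ratio of 1.45 (0.82 to 2.18). Mest and Plagl1 were higher there in 48 h hypoxia, with 54.4 and 116 CPM against 28.8 and 56.9 CPM in normoxia, ratios of 0.89 (0.26 to 1.58) and 1.02 (0.58 to 1.48), unlike in the remaining cells. At the finer clustering (resolution 2) the endoderm-like cluster held 19 cells in 48 h hypoxia and 50 in normoxia, and an unnamed cluster of low depth led by S100g, with Ttr among its 10 leading genes, held 35 and 14, so the class may differ in makeup between the libraries. Mest there rests on 44 UMIs in 48 h hypoxia and 39 in normoxia, and Plagl1 on 94 and 77. The class held 62 cells in 48 h hypoxia and 67 in normoxia, with median depths of 6079.5 and 19027 UMIs per cell.

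Macrophage-like cells held less of every member than the remaining cells at day 8. Within them, every member but Phlda2 was higher in 16 h hypoxia than in normoxia. In normoxia at day 8 they held between 0 CPM (Phlda2) and 36.1 CPM (Dlk1) of the 10 genes. In 16 h hypoxia they held between 0 CPM (Phlda2) and 229 CPM (Meg3). At day 10 the members went both ways in these cells. Meg3 had 306 CPM in 48 h hypoxia and 127 CPM in normoxia, and Rian had 29.2 and 51.5 CPM. Erythroid-like cells had 518 CPM of Meg3 in 16 h hypoxia and 71.5 CPM in normoxia at day 8, and 469 CPM and 105 CPM of Peg3. Their medians were 13522.5 and 17820 UMIs per cell. Every other member was also higher there in 16 h hypoxia, though the interval of Phlda2 (-1.19 to 3.52) holds both directions. The share of all genes higher within the macrophage-like and erythroid-like cells was not computed. These counts thus do not set the members apart from other genes. Free RNA from other cells was not measured in these libraries, and its part in the low values of blood-like classes was not tested.

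**Figure D5:**
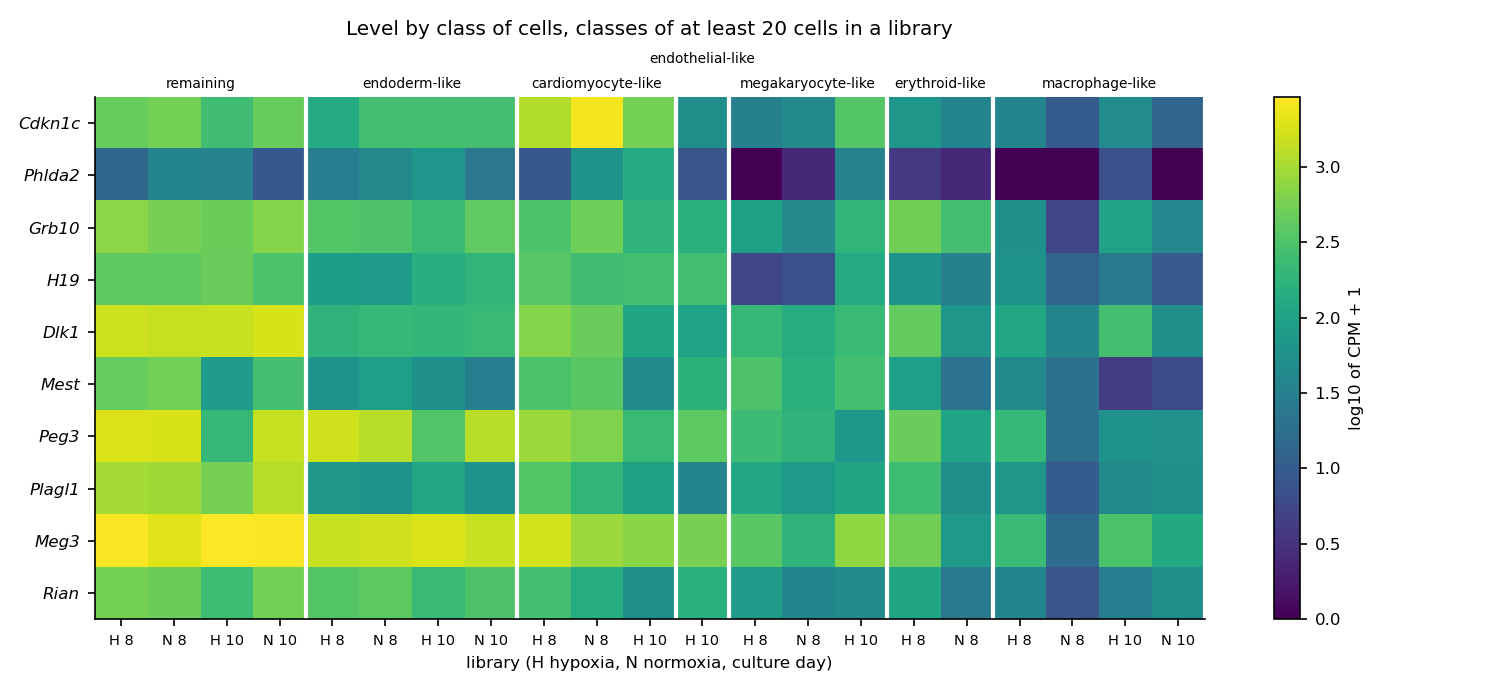
Level of each member (colour, log10 of CPM + 1) by class of cells and library, in classes with at least 20 cells in that library, hypoxia (H) left of normoxia (N) at each day. Cdkn1c is brightest in cardiomyocyte-like cells (2521 CPM in normoxia at day 8), and Peg3 is lower in 48 h hypoxia than in normoxia at day 10 in the remaining cells (204 against 1445 CPM) and in endoderm-like cells (332 against 1214 CPM).

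The likeness of other genes to each member was measured as Pearson's r of log2(CPM + 1) over 31 combinations of cluster and library with at least 50 cells. These points share libraries and depth, and r is given as a description. Another imprinted gene was the most alike for Dlk1 (Igf2, r = 0.969) and for Mest (Nnat, 0.940, a paternally expressed gene of a membrane proteolipid). For Rian the 3 most alike were B830012L14Rik (0.960), Mirg (0.952) and Zim1, the last at an r just below that of Mirg. Meg3 was most like Fermt2 (0.965), Peg3 like Fbxl7 (0.941) and H19 like Cfl2 (0.943). Grb10 was most like Pls3 (0.935) and Cdkn1c like Tsc22d1 (0.923). The most alike gene for Phlda2 was Fgfr2, at 0.711, the lowest of these values. Over the 22 combinations of remaining cells only, added after seeing the data, B830012L14Rik was again first for Rian (0.978) and Pls3 for Grb10 (0.910), and neither Igf2 for Dlk1 nor Nnat for Mest was among the first 3. Between members, the highest r over the 31 combinations were those of Meg3 with Rian (0.911), Dlk1 with Plagl1 (0.908) and Peg3 with Rian (0.902), while those of Phlda2 with the other members lay between 0.245 and 0.474. Over the 22 combinations of remaining cells these values were 0.658 for Meg3 with Rian, 0.0080 for Dlk1 with Plagl1 and 0.837 for Peg3 with Rian. There Phlda2 had between -0.873 (with Dlk1) and 0.045 (with Mest), so its sign with most members turned, and the likeness of Dlk1 and Plagl1 was seen only with the named classes included.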

How the data were processed

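The values the authors deposited are unnormalized UMI counts, made with Cell Ranger 7.1.0 on the mm10 build, per the submitters' processing notes. The sources used here do not give whether intronic reads entered the counts. Cells with at least 500 genes and at most 15% mitochondrial UMIs were kept. Scrublet called 1 to 9 doublets per library, where loading would give 63 to 180, so doublets remain. The kept cells held 62221875 to 84709052 UMIs per library. UMIs were summed per library, divided by the library total (CPM), and ratios taken as log2 of CPM + 1. Intervals at 95% are exact Poisson for a level, exact conditional binomial for a plain ratio, and Clopper-Pearson for a share. For a share of 0, the limit given is 3 cells of the total. No test was made, since each group has 1 library.

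Clusters came from Leiden clustering (resolution 1, 30 components, 15 neighbours, scanpy 1.11.5) of 2000 variable genes, without imprinted, hypoxia, glycolysis, cell cycle, stress, mitochondrial and ribosomal protein genes. A class was named where its marker list had a mean log2 fold of at least 3 and at least 3 detected markers, a threshold chosen after seeing the data. TMM factors came from edgeR 4.0.16 in R 4.3.3. Coordinates are 1-based from GENCODE M21 (32158 of 32285 gene IDs matched) and promoters and microRNAs from RefSeq. Alternatives were other scalings, filters, pseudocounts, cell filters, thinned cells and cluster resolutions. Thinning left out the cells with fewer than 5000 UMIs. The computation of ratios was checked on simulated counts with known fold changes, which says nothing of the data.

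All 10 members are named. Of the other imprinted genes averaging 5 CPM or more, up to 4 with the largest size per comparison are named, with Igf2. For each member the most alike of its 3 most alike genes is named, and for Rian all 3; that of Plagl1 is not reported here. Neighbours in a member's domain were named with their values known. The members and lists were chosen with earlier results of these data known.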

Additional observations from a re-analysis of the deposited data

Results flagged for a closer look

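Phlda2 went opposite ways in the 2 hypoxia comparisons, with a log2 ratio of -1.26 at day 8 (16 h) and 2.05 at day 10 (48 h). Each rests on 1 library against 1, and the difference between the ratios was not tested.

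Some members went opposite ways in different classes of cells within a comparison, each past 1.5-fold in classes of at least 50 cells. These differences were not tested. At day 10, Mest was -1.76 in the remaining cells and 0.89 in endoderm-like cells, and Plagl1 was -1.16 and 1.02 in the same classes. Cdkn1c was -0.86 in the remaining cells and 1.78 in macrophage-like cells, and Grb10 was -0.90 in endoderm-like cells and 1.31 in macrophage-like cells. Macrophage-like cells had 45.7 CPM of Cdkn1c in 48 h hypoxia and 12.6 CPM in normoxia, beside 254 and 461 CPM in the remaining cells. They had 98.1 and 38.9 CPM of Grb10, beside 476 and 687 CPM. At day 8, Cdkn1c was -1.01 in endoderm-like and 0.89 in erythroid-like cells, and Mest was -0.60 and 2.08 in those classes. Phlda2 was -1.34 in the remaining and 0.64 in erythroid-like cells. The last rests on 7 UMIs (2.90 CPM) in 16 h hypoxia and 3 UMIs (1.51 CPM) in normoxia. Its interval of -1.19 to 3.52 holds both directions. In erythroid-like cells at day 8 every member was higher in 16 h hypoxia, from 0.64 (Phlda2) to 2.84 (Meg3). The higher values in that class were thus not particular to Cdkn1c, Mest and Phlda2. The share of all genes higher in that class was not computed, so the members were not set apart from other genes. Mest there had 88.7 CPM in 16 h hypoxia and 20.1 CPM in normoxia, beside 436 and 538 CPM in the remaining cells. The part of this shift across the class was not tested.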

How the results depend on the processing

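The members gave 30 log2 ratios, each recomputed under 10 other settings. Of the 100 recomputed values of the 10 ratios past 1.5-fold, 95 kept their direction and their side of the threshold, and 0 changed sign. Some settings, such as all barcodes or a stricter cell filter, differ little from the main one, so these values are not independent checks. For each of the 30 ratios, between 2 and 7 settings moved the value by more than its counting error. Smaller ratios changed sign in 5 values, for Dlk1, Grb10 and H19. Members at least 1.5-fold higher at day 8 numbered 1 under TMM, beside 10.6% of all genes. Lower members at day 8 numbered 2 as a mean over cells and in thinned cells, beside 6.87% and 7.57% of all genes. At day 10, higher members numbered 1 as a mean over cells and in thinned cells, beside 13.8% and 12.9% of all genes. Lower members numbered 3 under TMM, beside 18.8% of all genes. Between days 2 members were higher under TMM, beside 9.44% of all genes. Without the cluster of low depth, 3 members were lower in every remaining cluster at day 10, beside 25.8% of all genes. Other imprinted genes higher at day 8 numbered 2 under TMM and with median centring and 3 without a filter. The shares of all genes were 10.6%, 5.75% and 2.59%. Lower imprinted genes numbered 0 at a mean of at least 50 CPM and 2 without a filter, beside 4.50% and 7.40%. At day 10, higher ones numbered 4 under TMM and with centring, 0 without blood, endothelial and endoderm-like cells and 2 without a filter. The shares of all genes were 31.2%, 23.6%, 12.6% and 5.70%. Between days, 3 other imprinted genes were higher under TMM, and 1 higher and 8 lower without a filter. The shares of all genes were 9.44%, 5.58% and 6.85%. The cause of these changes was not tested. No paired analysis was possible because each group has 1 library. Depth limits Phlda2 most, with 479 UMIs in normoxia at day 10.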

Other observations

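Further imprinted genes, chosen by the size of their ratio, differed outside the 48 h comparison. In 16 h hypoxia over normoxia at day 8, the log2 ratio was -1.02 for Asb4, 0.60 for Zdbf2, -0.57 for Rtl1 and 0.53 for Cd81, a membrane tetraspanin. For day 10 over day 8 in normoxia it was -1.85 for Dio3, which encodes the enzyme that inactivates thyroid hormone, -0.90 for Ndn, -0.88 for Snrpn, a splicing protein gene, and -0.65 for Nnat. Dio3 had 2.60 CPM at day 10 and 11.9 CPM at day 8.

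Airn, the paternally expressed non-coding RNA that overlaps the start of the Igf2r gene, gave 90.6 UMIs per 100 of Igf2r in 48 h hypoxia and 248 in normoxia at day 10. At day 8 it gave 304 in 16 h hypoxia and 281 in normoxia. These ratios within a library do not depend on scaling, and they have no replicate check. This pair was named after its values were seen.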
